A study of Mus musculus with 12 samples.

Results

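The comparison set all 6 libraries with a Batf3 vector against all 6 with a control vector, over 2 cultures, and asked which genes the vector changed alike in both. RNA came from OT-I CD8 T cells (strain background C57BL/6, spleen), which carry a transgenic T cell receptor. Every group was transduced with a retroviral vector, empty or expressing Batf3, and sorted for transduced cells, so the controls share transduction and sorting. The non-stimulated cultures then received IL-15 (100 ng/ml) and the stimulated ones plate-bound antibodies to CD3e and CD28 (1 µg/ml each), both for 6 h, and the labels name IL-15 for the former only. Each of these 4 groups had 3 libraries, which the series calls technical replicates, so that errors and p-values hold the spread between preparations and not that between mice or transductions. The labels give no number of mice and no age. The effect averaged over both cultures is the vector term of an additive model with culture as a block. A gene was counted as shared when its averaged effect and its effect in each culture passed an adjusted p of 0.05 with 1 sign, the smaller effect was at least 0.5 of the larger, and the 95% interval of the difference between the effects lay within 1.5-fold either way. Of 15702 genes tested, 1386 met this rule, 561 of them higher and 825 lower with Batf3. They were chosen by these values, which therefore describe them and do not test them.

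BATF3 is a basic leucine zipper protein of the AP-1 family. Such proteins bind DNA as dimers, BATF factors chiefly with JUN proteins, at the AP-1 site, and can join interferon regulatory factors IRF4 and IRF8 at composite elements. BATF3 is best known for the development of dendritic cells that cross-present antigen, and the title of the series places it in the memory of CD8 T cells. In activated T cells it is induced together with its relative BATF.

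Total counts lay between 14211564 and 14468231 per library, so depth was even. The first principal component of all 12 libraries (88.2% of the variance) separated the cultures and the second (4.29%) the vectors. The stimulated Batf3 replicate 3 differed more from its partners (chi-square per gene 3.16 and 2.62) than they from each other (1.59), and mitochondrial genes took 1.64% of its counts against 1.96% and 1.89%. Without it 2511 genes were higher and 3118 lower on average, and 505 and 854 shared, against 2618, 3036, 561 and 825 with it. Markers of CD8 T cells summed to between 1594 and 2706 CPM (counts scaled by library size and TMM factor, with no pseudocount) in every library. Of the defining markers of other cells, Ms4a1, Lyz2, Siglech, Klra8, Ncr1, Pf4 and Ppbp had no count in any library. Ighm, Tlr7, Cd74, Itgax, Eomes, Gzma and Trdc were among the most abundant members of the lists for B, myeloid, NK and gamma delta T cells. The summed markers of CD4 T cells, which Icos led, were higher with Batf3. In non-stimulated libraries they were 83.5 to 87.3 with control against 153.9 to 157 CPM with Batf3. In stimulated libraries they were 47.4 to 51.3 against 160.9 to 162 CPM. Cd4 itself had 0.668 CPM or less and Il4 0.297 CPM or less in every library. The sums for NK cells were lower with Batf3 without stimulation (385 to 397 against 282 to 293 CPM). With stimulation they were higher (71.5 to 74.0 against 137 to 141 CPM). Those for B and gamma delta T cells went the reverse way. Those for myeloid cells were lower with Batf3 without stimulation and overlapped with it. Whether other cells had a part in any result was not tested, and in bulk RNA fewer cells of a type and less RNA per cell cannot be told apart.

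The same few promoter motifs recur below, and stretches that hold them are printed here for shared genes with large effects or from the lists that moved together. Sequences are from the RefSeq table of GRCm38.p6, 250 bases before to 50 bases after each start, in which 10049 of 15700 tested symbols had a window. Each is read 5′ to 3′ on the gene's own strand and ends at or before the start, and capitals mark the motif on either strand. The first set holds GAAANNGAAA, the core of the element bound by interferon regulatory factors, in genes that fell. Bst2 (tetherin) and Oas1a are antiviral effectors, Ifi207 a DNA-sensor family member, and Stat2 a subunit of the factor that carries the interferon signal.
Oas1a (chr5:120907526-120907590, minus strand): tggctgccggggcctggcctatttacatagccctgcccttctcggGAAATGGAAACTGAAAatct
Bst2 (chr8:71537542-71537647, minus strand): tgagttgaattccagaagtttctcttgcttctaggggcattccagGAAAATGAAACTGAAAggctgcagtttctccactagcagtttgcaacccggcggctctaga
Ifi207 (chr1:173741810-173741895, minus strand): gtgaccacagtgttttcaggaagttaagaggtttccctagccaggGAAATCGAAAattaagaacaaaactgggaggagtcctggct
Stat2 (chr10:128270248-128270330, plus strand): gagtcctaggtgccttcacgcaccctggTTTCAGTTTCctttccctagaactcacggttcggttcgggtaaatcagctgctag

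The next set holds TTTGAA, the cell cycle homology region through which mitotic genes are repressed in resting cells, in genes that rose. Mki67 encodes a proliferation marker of the chromosome surface, Ube2c and Cdc20 parts of the anaphase-promoting machinery, and Kif11 a spindle motor.
Mki67 (chr7:135716427-135716540, minus strand): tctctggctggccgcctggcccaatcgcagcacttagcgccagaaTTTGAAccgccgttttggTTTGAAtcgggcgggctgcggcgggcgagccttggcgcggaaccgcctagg
Ube2c (chr2:164769855-164769928, plus strand): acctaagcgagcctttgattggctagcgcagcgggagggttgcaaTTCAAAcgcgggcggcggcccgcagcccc
Cdc20 (chr4:118437344-118437406, minus strand): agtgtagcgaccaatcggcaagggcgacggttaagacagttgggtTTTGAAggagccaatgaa
Kif11 (chr19:37376318-37376381, plus strand): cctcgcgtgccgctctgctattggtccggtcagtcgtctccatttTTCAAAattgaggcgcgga

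The last set holds TGANTCA, the AP-1 site, in genes that rose and in which the site lies 15 to 9 bases before a start. The letters are not particular to rises. Among shared changes of 1.5-fold or more they lay in 17.8% of the windows of falls and 8.51% of those of rises. St6gal1 encodes a sialyltransferase, Tiam1 an exchange factor for RAC and Tmcc3 a membrane protein of the endoplasmic reticulum. The windows shown are 1 of 3 for St6gal1, 1 of 2 for Tiam1 and 1 of 6 for Tmcc3.
St6gal1 (chr16:23290410-23290469, plus strand): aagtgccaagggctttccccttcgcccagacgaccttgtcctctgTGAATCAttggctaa
Tiam1 (chr16:89974700-89974759, minus strand): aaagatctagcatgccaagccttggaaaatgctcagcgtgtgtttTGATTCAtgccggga
Tmcc3 (chr10:94550860-94550919, plus strand): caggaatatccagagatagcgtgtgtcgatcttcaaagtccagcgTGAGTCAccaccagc

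Batf3 itself (chromosome 1, 191097847 to 191108945, GRCm38) was compared first. It measured 7.44, 5.83 and 7.02 CPM in the control and 475, 468 and 469 CPM in the Batf3 libraries of the non-stimulated cultures, and 18.3, 19.1 and 17.7 against 435, 414 and 434 CPM in the stimulated ones. No Batf3 library overlapped a control. Its averaged log2 effect was 5.22 ± 0.26 (SE), with 6.12 in non-stimulated and 4.54 in stimulated cells, and the deposited counts do not separate vector from endogenous transcripts. The gap between the cultures keeps Batf3 out of the shared genes. Its relative Batf read 19.5, 19.3 and 20.1 against 20.7, 20.5 and 20.4 CPM without stimulation and 37.2, 35.1 and 36.2 against 26.7, 28.5 and 29.3 CPM with it, and its averaged value of -0.16 ± 0.07 lay at the threshold (adjusted p = 0.0547, edgeR's quasi-likelihood test). Its effect was 0.06 without stimulation, which was not called, and -0.36 with it, which was. Batf passed in 10 of 22 alternative fits and not in the others, scaling by library sizes alone among them. It passed with RLE factors (0.0492), with no filter on low counts (0.0211) and in the contrast averaged over 4 group means (0.0124). It also passed in stimulated libraries alone (3.08e-05) and without any 1 of the 6 non-stimulated libraries (0.0286 to 0.0433).

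Over both cultures 2618 genes were higher and 3036 lower with Batf3, 16.7% and 19.3% of those tested and 36.0% together. Higher calls were 46.3% of all calls with TMM scaling and 65.8% (3663 higher, 1901 lower) with library sizes alone, although the median of all genes moved only from -0.01 to 0.05 on the log2 scale. A contrast that averages the 2 cultures' effects with equal weight called 2989 genes higher and 3731 lower. Among genes called by the additive fit 325 rose and 86 fell by 2-fold or more. Within single cultures, 16.3% of genes were higher and 23.0% lower without stimulation, and 14.8% higher and 14.6% lower with it. The effects in the 2 cultures come from separate libraries, but whether they also come from separate transductions was not tested. Their Pearson correlation was 0.53 over the 9586 genes with a mean of 10 CPM or more in the vector with the higher mean, and 0.41 over all 15702 genes. These are correlations across genes, which are not independent replicates.

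**Figure D1:**
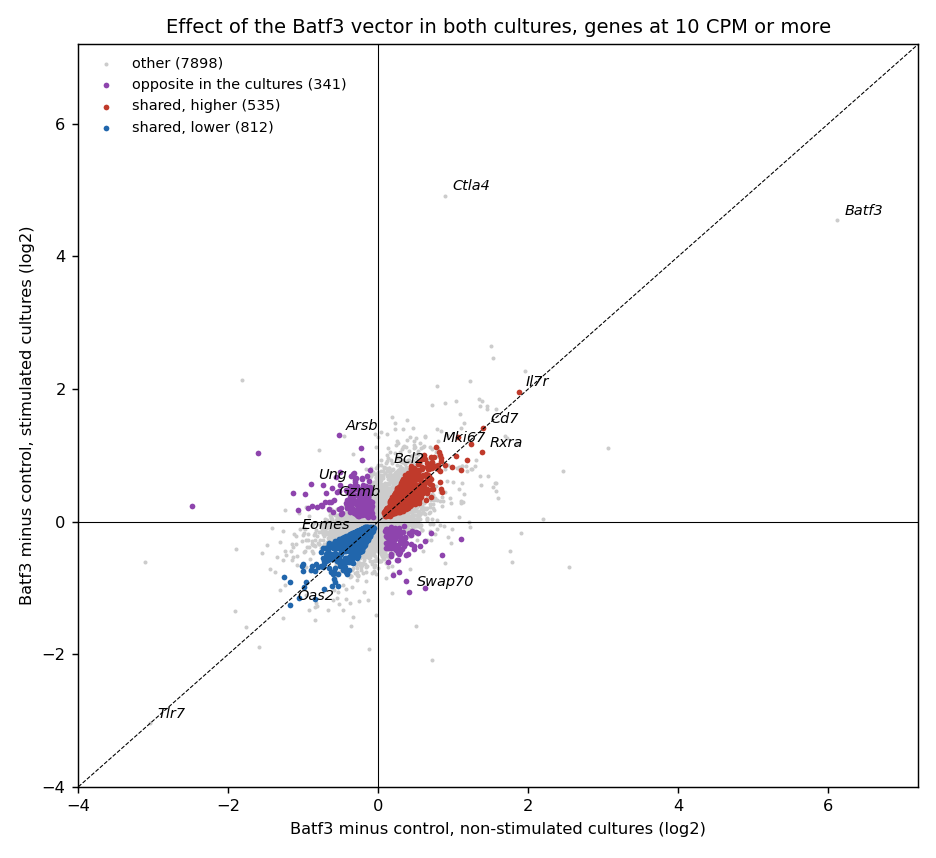
Log2 effect of the Batf3 vector in non-stimulated cultures (x axis) against stimulated cultures (y axis) for 9586 genes with 10 CPM or more, each point the contrast of 3 Batf3 and 3 control libraries. Shared genes (red higher, blue lower) follow the dashed line of equal effects by their definition, genes with opposite effects are purple, and Ctla4, Batf3 and Eomes lie off the line.

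An averaged effect was often an effect of 1 culture. Of the 5654 genes called, 2425 were also called in each culture, 2005 in non-stimulated cells alone, 1003 in stimulated cells alone and 221 in neither. All but 5 of the 2425 had the same sign in both (1096 higher, 1324 lower). In 1716 the smaller effect reached 0.5 of the larger, and in 1386 the interval of the difference also lay within 1.5-fold, which is 3.57% of tested genes for rises and 5.25% for falls. Conversely, 2586 genes were called in at least 1 culture and not by the additive fit. The difference between the cultures was itself called in 3250 genes (20.7%), among them 1708 of the 5654 and 146 of the shared genes, whose difference lay within the bounds set. In 3082 genes (19.6%) the libraries of the 2 vectors did not overlap in either culture, with 1 direction, and 1284 of the shared genes were among them.

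The shared effects were small. Their median was 0.36 for the rises and -0.24 for the falls, 80 rose and 52 fell by 1.5-fold or more, and 7 rose and 4 fell by 2-fold or more. The rises were larger in stimulated cells for 362 of 561 genes (median 0.40 against 0.32), while the falls were larger in non-stimulated cells for 512 of 825 (median -0.25 against -0.22). The median of all tested genes was itself -0.024 without and 0.002 with stimulation, a gap about as large as that of the falls. With library sizes alone the shared genes numbered 895 higher and 451 lower, of which 553 and 448 were shared with TMM as well, so the balance of directions rests on the scaling. The rule also favours abundant genes, since their intervals are narrow. Shared genes had 10 CPM or more in 95.4% of the rises and 98.4% of the falls, against 61.0% of tested genes. Of the 411 genes changed by 2-fold, 160 passed all but the interval, and 149 of these failed it, 114 of them under 10 CPM in the higher vector.

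Surface receptors were among the largest shared rises. Il7r (chromosome 15, 9505788 to 9530176, GRCm38) encodes the IL-7 receptor alpha chain, a receptor of survival signals in resting T cells. In non-stimulated cells it measured 37.5, 34.3 and 37.5 CPM with control and 137, 137 and 127 CPM with Batf3, and in stimulated cells 6.47, 3.73 and 3.50 against 18.3, 19.8 and 15.3 CPM. All Batf3 libraries lay above the controls of their culture, although levels were lower in stimulated cells with both vectors. The averaged log2 effect was 1.89 ± 0.08 (SE, 6 libraries a vector), from 1.87 and 1.96, and the difference between the cultures had an interval of -0.28 to 0.45. Cd7 (chromosome 11, 121036747 to 121039418), an immunoglobulin-family receptor of T and NK cells, read 25.4, 26.1 and 24.6 against 66.7, 69.3 and 63.6 CPM, and 5.48, 3.81 and 4.19 against 11.2, 11.9 and 12.7 CPM with stimulation. Its effects of 1.39 and 1.41 were nearly equal, and the average was 1.40 ± 0.06.

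Sema4f, a transmembrane semaphorin, rose by 1.11 ± 0.05. Its libraries held 67.1, 65.3 and 63.9 CPM with control and 138, 134 and 137 CPM with Batf3 in non-stimulated cells, and 6.09, 5.03 and 6.09 against 12.8, 14.5 and 14.5 CPM in stimulated cells. The groups were apart in both cultures at levels about an order of magnitude different. Itga3, the integrin alpha 3 chain, which pairs with beta 1 to bind laminins, had the reverse dependence on culture. It read 3.59, 3.91 and 3.51 against 5.80, 7.24 and 6.35 CPM without and 33.0, 34.8 and 36.6 against 75.7, 66.6 and 72.7 CPM with stimulation, a rise of 0.99 ± 0.06. Il18r1, the ligand-binding chain of the IL-18 receptor, rose by 0.78 ± 0.05 and Itgb7, which forms gut-homing integrins, by 0.51 ± 0.05. Both were the larger in stimulated cells (0.62 and 0.95 for Il18r1, 0.39 and 0.73 for Itgb7), with called differences. Cxcr3, a chemokine receptor of effector and memory cells, rose by 0.38 ± 0.04, and Cd28, the costimulatory receptor, by 0.22 ± 0.04.

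A pair of sialyltransferases rose, enzymes that cap the glycans of surface proteins. St6gal1 (chromosome 16, 23224740 to 23360350), which adds alpha-linked sialic acid to N-glycans, measured 10.4, 9.61 and 10.01 CPM in control and 22.7, 24.0 and 24.4 CPM in Batf3 non-stimulated libraries. With stimulation it read 3.73, 3.66 and 4.42 against 8.85, 8.53 and 9.29 CPM. The groups were again apart in both cultures, and the average was 1.22 ± 0.07. St3gal1, which caps O-glycans, rose by 0.92 ± 0.06 (1.10 and 0.77), the effect being the larger in non-stimulated cells (interval of the difference -0.48 to -0.16).

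Among regulators of transcription, Rxra (chromosome 2, 27676440 to 27762957), the retinoid X receptor that partners many nuclear receptors, measured 26.4, 26.0 and 27.4 CPM with control and 68.7, 72.7 and 67.7 CPM with Batf3. In stimulated cultures, where its level was higher, it read 108, 112 and 109 against 228, 221 and 230.1 CPM. Its average was 1.19 ± 0.05, from 1.39 and 1.04. Gata3, the factor of type 2 helper cells, rose by 0.83 ± 0.06, Klf2, which maintains quiescence and trafficking, by 0.62 ± 0.06, and Runx3, the CD8 lineage factor, by 0.41 ± 0.03 with the same value of 0.41 in each culture. Bach2, a repressor that competes for AP-1 sites and restrains effector differentiation, rose by 0.41 ± 0.04, and Lef1 by 0.37. Fos, a classical AP-1 subunit, rose by 0.62 ± 0.06 from 12.8, 12.5 and 11.9 to 19.1, 16.9 and 19.1 CPM, and from 29.8, 26.9 and 30.6 to 48.4, 43.8 and 46.5 CPM with stimulation.

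Among the other large shared rises, Neb encodes nebulin, an actin-filament protein known from muscle, and rose by 1.12 ± 0.06. It read 34.8, 41.8 and 39.1 against 85.6, 87.2 and 89.1 CPM, and 5.71, 4.88 and 4.19 against 8.93, 9.87 and 9.29 CPM in stimulated cells. Map6, a microtubule-stabilising protein, read 43.8, 42.4 and 41.2 against 86.3, 86.7 and 88.8 CPM, and 1.68, 1.91 and 2.06 against 4.69, 3.49 and 3.02 CPM at the low level of stimulated cells (average 1.03 ± 0.06). Ahnak, a very large scaffold protein linked to calcium entry in T cells, rose by 0.87 ± 0.03 with 0.89 and 0.86 in the cultures. Tiam1 rose by 0.90 ± 0.06, Tent5a, a poly(A) polymerase, by 0.92 ± 0.06, and Tmcc3 by 0.88 ± 0.08. In all of these the libraries of the vectors did not overlap in either culture, which the rule for naming the largest effects required. They stand for no common trend: with TMM scaling, of 23 tested actin and adhesion regulators 4 rose and 10 fell, none was a shared rise, and Msn, Actg1 and Cfl1 were shared falls (16.7% of all tested genes were higher and 19.3% lower, 3.57% and 5.25% shared). With library sizes alone 7 of the 23 rose and 3 fell, with 2 shared rises and 3 shared falls. Of all tested genes 3663 were then higher and 1901 lower.

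**Figure D2:**
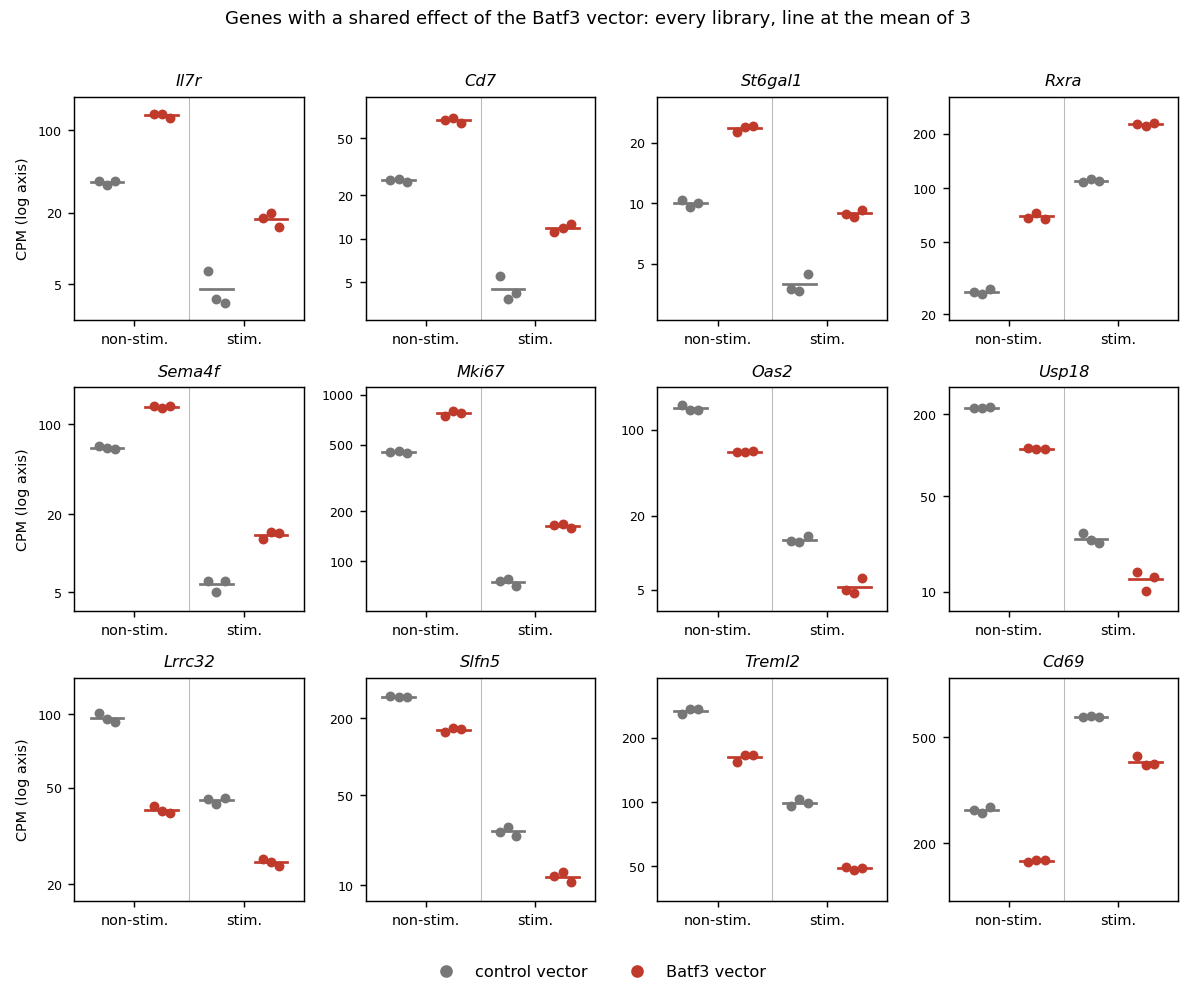
CPM on a log axis of 12 shared genes in every library, control vector in grey and Batf3 vector in red, non-stimulated cultures left and stimulated right of the vertical line, with a bar at the mean of 3 libraries. Il7r, Cd7, St6gal1, Rxra, Sema4f and Mki67 were higher with Batf3 in both cultures and Oas2, Usp18, Lrrc32, Slfn5, Treml2 and Cd69 lower, whichever culture had the higher level.

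Mitosis genes rose in both cultures. All 24 tested members rose on average (median 0.47, against -0.01 for all genes tested), all 24 were called higher in each culture, and 17 met the shared rule. The background is 16.7% of genes called higher. Mki67 measured 456, 458 and 448 against 743, 794 and 778 CPM in non-stimulated cells and 76.3, 78.7 and 71.1 against 165, 167 and 158 CPM in stimulated cells, an average of 0.92 ± 0.05. No library overlapped the other vector, and its level was lower in stimulated cells at this time. The centromere protein gene Cenpf rose by 0.63 ± 0.06 and Birc5 (survivin), part of the chromosomal passenger complex, by 0.58 ± 0.05. Top2a, the mitotic topoisomerase, rose by 0.52, Kif11 by 0.52, Ube2c by 0.43 and Cdc20 by 0.22, the smallest rise of the list. Members differed in size between the cultures: the effect was larger in stimulated cells in each of the 13 members with a called difference, such as Plk1 (0.25 and 0.70), Cdk1 (0.21 and 0.60) and Cenpe (0.28 and 0.79), 3 genes outside the shared rule. The 24 rises were called with each of the 3 scalings tried. TTTGAA lay in 14 of the 19 promoter windows of this list (73.7%), against 12.5% of the windows of all tested genes, and CCAAT in 17 of 19 (38.1% of all). Across the 1486 tested genes with TTTGAA in a window, 22.8% were higher with Batf3 and 6.26% shared and higher. The 8563 genes without it had 18.1% and 4.06%. For CCAAT, 19.3% of genes with it were higher and 18.4% of those without.

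The shared falls included many genes induced by type I interferon, the cytokines that switch on antiviral genes. Of 26 tested members 22 fell on average and none rose, 14 met the shared rule, and the median was -0.50 (19.3% of all genes were called lower). With library sizes alone or RLE factors 21 of the 26 fell. Oas2 (chromosome 5, 120730333 to 120749853), an enzyme that senses double-stranded RNA, measured 159, 145 and 144 CPM with control and 65.9, 65.8 and 66.98 CPM with Batf3, and 12.4, 12.2 and 13.6 against 4.98, 4.75 and 6.20 CPM with stimulation. Control libraries were the higher in both cultures, and the average was -1.19 ± 0.05. Usp18 (chromosome 6, 121245906 to 121270917), which removes ISG15 and restrains the interferon receptor, read 221, 221 and 227 against 114, 111 and 112 CPM and 26.8, 23.9 and 22.7 against 13.8, 10.2 and 12.9 CPM. Its effect was -0.99 in each culture, with a difference of -0.18 to 0.19 at 95%.

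Oas1a (chromosome 5, 120896256 to 120907521) read 64.4, 68.0 and 64.3 against 29.5, 30.4 and 27.3 CPM and, with stimulation, 11.6, 11.97 and 14.1 against 7.14, 6.83 and 6.12 CPM, an averaged effect of -1.10 ± 0.06. Ifit2, which binds foreign RNA, read 308, 316 and 326 against 156, 160.2 and 157 CPM and 24.0, 23.6 and 23.9 against 13.6, 13.7 and 15.2 CPM (-0.92 ± 0.04). Both were expressed far less in stimulated cells, yet the vectors stayed apart there. Mx2, a relative of the dynamin-like restriction factors that the annotation lists as a polymorphic pseudogene, changed by -0.82 ± 0.05, Bst2 by -0.75, Irf7, the amplifier of interferon production, by -0.67, Rsad2 (viperin) by -0.54, and the signal transducer Stat2 by -0.38. Further interferon-associated genes outside the list were among the largest shared falls: Ifi27l2a (-0.94 ± 0.04), Slfn5 (-0.94 ± 0.05), Ifi207 (-0.78 ± 0.08) and Irf5 (-0.76 ± 0.06). Reads of Oas1a and Ifi207 may be divided with near-identical copies of their families.

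Not every interferon gene moved alike. In 2 members the cultures went opposite ways: Ifit1 (-0.37 and 0.23) and Oasl1 (-0.42 and 0.24) were lower in non-stimulated and higher in stimulated cells. Isg15, the ubiquitin-like modifier (-0.99 and -0.17), and Isg20 (-0.75 and -0.10) had the larger fall without stimulation, whereas Xaf1 (-0.36 and -0.99) and Oas3 (-0.10 and -0.49) fell more with it. The difference was called in 16 of 26, with 9 positive and 7 negative. GAAANNGAAA lay in 10 of 22 promoter windows of the list. Across the 399 tested genes with this motif in a window, 32.8% were lower with Batf3 and 12.8% shared and lower, against 19.0% and 4.82% of the 9650 genes whose windows lack it. A match to the letters is not a bound site.

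**Figure D3:**
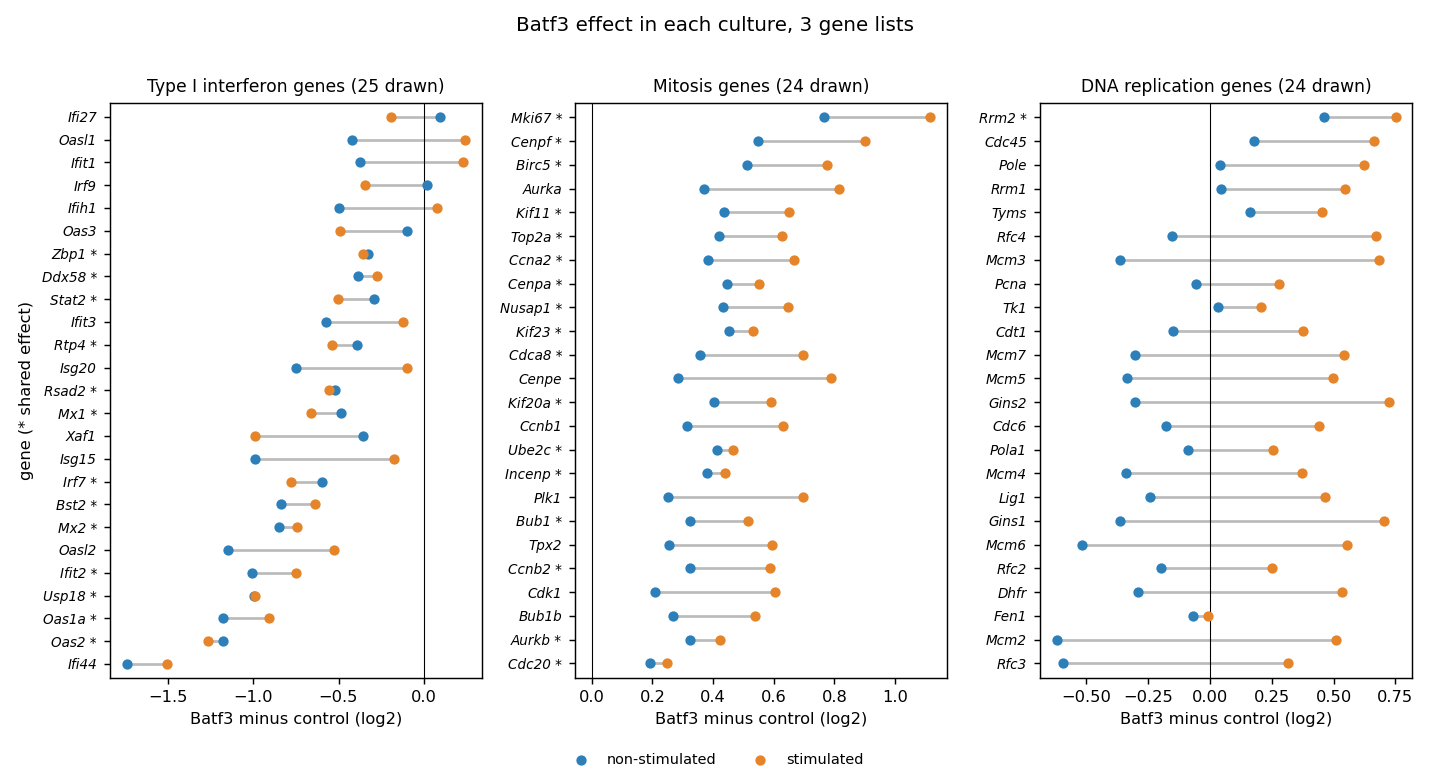
Log2 effect of the Batf3 vector in non-stimulated (blue) and stimulated (orange) cultures for the tested genes of the type I interferon, mitosis and DNA replication lists, ordered by the averaged effect, with an asterisk for genes that met the shared rule and 1 interferon gene not drawn. The 24 mitosis genes lie right of 0 in both cultures, most interferon genes lie left of it, and for 14 of the 24 replication genes the line between the cultures crosses 0 with both ends called.

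Beyond the interferon genes, Lrrc32 (chromosome 7, 98489283 to 98502181), which tethers latent TGF-beta on regulatory T cells, fell by 1.08 ± 0.06. It read 101, 96.0 and 92.9 against 42.1, 40.2 and 39.3 CPM, and 44.9994, 42.6 and 45.2 against 25.5, 24.6 and 23.9 CPM with stimulation, with no overlap. Dnajc27, a small GTPase with a J domain, read 7.44, 8.22 and 7.16 against 3.83, 3.65 and 3.46 CPM and 46.9, 48.2 and 51.0 against 25.6, 20.8 and 19.2 CPM (-1.13 ± 0.07). Its level was several-fold higher in stimulated cells and the effect alike in both. Treml2, an immunoglobulin-like receptor, read 257, 272 and 273 against 154, 167 and 166 CPM and 95.4, 104 and 99.2 against 49.7, 48.1 and 49.1 CPM (-0.86 ± 0.05). The focal adhesion protein gene Tns1 changed by -0.80 ± 0.05 and Lgals9, encoding galectin-9, by -0.75 ± 0.05. Cd69, an early activation antigen that retains cells in tissue, fell from 267, 259 and 274 to 169.8, 173 and 174 CPM without and from 594, 598 and 594 to 424, 392 and 396 CPM with stimulation (-0.60 ± 0.03).

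AP-1 factors and the partners of BATF proteins moved in both directions. Irf8, which joins BATF dimers at composite elements, read 115, 116 and 113 against 78.9, 71.8 and 77.8 CPM, and 607, 612 and 615 against 367, 352 and 375 CPM in stimulated cells, with all control libraries above (-0.68 ± 0.03). Of 16 tested AP-1 factors and partners 4 rose and 7 fell, and 2 and 4 were shared, where 16.7% and 19.3% of all genes were called and 3.57% and 5.25% shared. Besides Irf8 the shared falls were Junb (-0.23) and Jund (-0.23), AP-1 subunits, and Nfil3 (-0.27), a repressor induced by interleukins. Irf4 fell more with stimulation (-0.11 and -0.51), and Jun had a value of -0.10 without and 0.72 with it. The AP-1 letters TGANTCA lay in 6.82% of the windows of shared rises, 6.33% of those of shared falls and 5.33% of those of all tested genes. Among shared falls of 1.5-fold or more they lay in 8 of 45 windows (17.8%), and among such rises in 8 of 94 (8.51%). Of genes with the motif, 22.05% were higher and 21.7% lower on average, against 18.6% and 19.4% of those without. The longer composite elements hold the AP-1 letters with an IRF core, either next to them or spaced. They lay in 1 window of the shared rises (0.166%) and 1 of the shared falls (0.151%), both of the type with the cores next to each other. That type lay in 0.094% of the windows of all tested genes and the spaced type in 0.078%. Counts this low show no difference.

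Cytokine receptors and their regulators moved in both directions. Of 23 tested members 10 rose and 5 fell, and 11 were shared, 7 higher and 4 lower, against 16.7% of all genes higher, 19.3% lower, 3.57% shared and higher and 5.25% shared and lower. The share of members that fell was near that of all genes. Beside Il7r and Il18r1, the shared rises were Il6ra (0.64), Socs2 (0.45), Tgfbr1 (0.40), Ifngr1 (0.32) and Socs3 (0.29), the SOCS genes encoding feedback inhibitors. The shared falls were Il10ra, the ligand-binding chain for IL-10 (-0.67 ± 0.04), Il2rg, the chain common to several interleukin receptors (-0.27 ± 0.03), Il15ra (-0.22) and Il27ra (-0.21). The IL-2 and IL-15 receptor chain Il2rb moved opposite ways (0.22 and -0.15).

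For the lists that follow, 16.7% of all tested genes were higher and 19.3% lower, with 3.57% and 5.25% shared. Of 20 tested genes of memory and stem-like T cells 13 rose and 3 fell, with 5 shared rises (Il7r, Klf2, Bach2, Cxcr3, Lef1) and 1 shared fall, Cd44 (-0.27 ± 0.03), the adhesion receptor high on memory cells. With library sizes alone this list held 6 shared rises and 0 shared falls. Eomes and Tcf7 were not shared. Eomes, a T-box factor of memory cells, changed by -1.12 and -0.19, and Tcf7, the factor of stem-like cells, by -0.20 and -0.77. Of 18 tested effector genes 7 rose and 4 fell, the falls near the share of all genes. With library sizes alone 9 of these rose and 1 fell. Prf1, encoding perforin, was shared (0.70 ± 0.05) and read 10.8, 11.4 and 10.9 against 16.7, 14.4 and 16.3 CPM, and 90.6, 94.1 and 96.0 against 162, 159 and 159 CPM with stimulation, with no overlap. Klrd1 (0.30 ± 0.05) was shared as well, while Gzmb was opposite. The inhibitory receptors Pdcd1 (PD-1, 0.33 ± 0.04) and Havcr2 (TIM-3, -0.25 ± 0.05) were shared in opposite directions. With library sizes alone the inhibitory receptor list held 2 shared rises and 0 shared falls. Of 23 tested cytokines and chemokines 4 rose, near the share of all genes, and 15 fell, but only Ccl4 (-0.75 ± 0.06), Lif (-0.64 ± 0.04) and, upward, Ccl5 (0.56 ± 0.04) were shared. Reads of Ccl4 may be divided with its near copy Ccl3. Ifng, encoding interferon gamma, read 14.2, 15.9 and 13.8 against 16.4, 17.2 and 14.2 CPM, and 13188, 12921 and 12802 against 11898, 11661 and 11583 CPM with stimulation. Its fall was called in stimulated cells alone (-0.15), and the averaged value did not pass (adjusted p = 0.276).

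Genes of growth and synthesis were lower by small amounts. Over all tested genes 19.3% were lower (5.25% shared) and 16.7% higher (3.57% shared), and among protein-coding genes of 100 CPM or more 42.4% were lower, or 26.9% with library sizes alone. All 24 listed ribosomal proteins of the cytosol fell (median -0.19), 13 of them shared, and of 80 ribosomal protein genes found by symbol 72 fell and none rose. Rplp1 (-0.28 ± 0.03) and Rpl18 (-0.24 ± 0.03) were the largest shared falls of the list. The difference between the cultures was called in 19 of the 24, each time with the fall larger in non-stimulated cells. With library sizes alone 23 of the 24 were still lower. Of 14 tested MHC class I genes 12 fell and 4 were shared, among them B2m (-0.22), the invariant chain, the peptide pump gene Tap1 (-0.22) and the immunoproteasome subunit gene Psmb9 (-0.33). ATF4 targets (18 of 21 lower) included shared falls of Asns (-0.40 ± 0.04), which makes asparagine, and of the amino acid carrier gene Slc7a5 (-0.39 ± 0.03). Of 22 genes of sterol and fatty acid synthesis 11 fell on average, with Hmgcs1 (-0.59 ± 0.05), which makes a precursor of sterols, among the shared falls. None rose on average with TMM scaling, although 1 did with library sizes alone. Without stimulation 19 of the 22 were lower (median -0.38). With it 8 were lower and 2 higher (median -0.04). MYC targets fell in 15 of 22 and none was shared, and their median was -0.48 without and -0.05 with stimulation. Among 19 tested p53 targets 10 rose and 2 fell, and 5 rises were shared, such as those of Zmat3 (0.50 ± 0.04) and Pmaip1 (NOXA, 0.48 ± 0.05).

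Direction went with expression level. Among protein-coding genes with a mean of 100 CPM or more over all libraries, 42.4% were lower and 17.8% higher with Batf3, and 14.3% were shared and lower. At 1 to 10 CPM 9.33% were lower and 21.6% higher. With library sizes alone the abundant class split evenly, 26.9% lower and 26.5% higher, while the class of 1 to 10 CPM kept 7.21% lower and 26.7% higher. By type of gene, 23.9% of 2390 pseudogenes were lower and 4.14% higher, and 20.02% of 899 long noncoding RNAs were higher and 4.23% lower. Of the 167 pseudogenes among the shared falls 46 carry the name of a ribosomal protein, and reads of such copies may be divided with those of the parent gene.

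**Figure D4:**
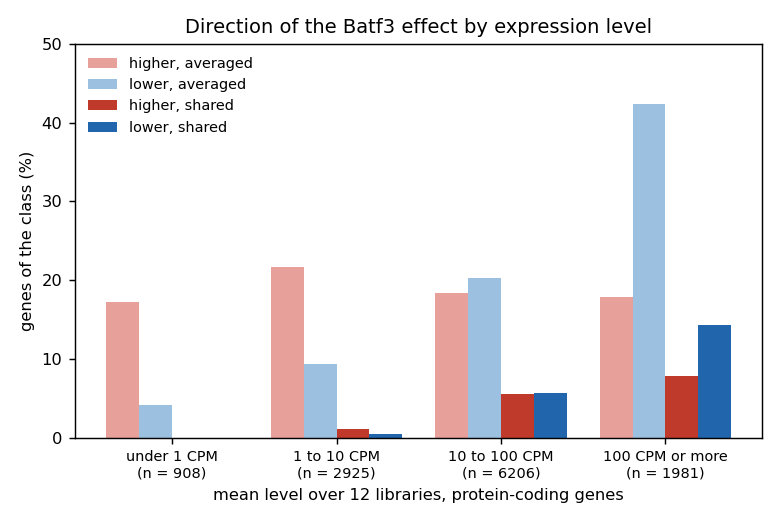
Percent of protein-coding genes called higher or lower on average (pale bars) and counted as shared (dark bars), in 4 classes of mean level over the 12 libraries, with TMM scaling. In the class of 100 CPM or more 42.4% were lower and 17.8% higher, a gap that closed with library sizes alone (26.9% and 26.5%).

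Other genes had effects of opposite sign in the cultures. In 362 genes both cultures were called with opposite signs, 110 (0.701%) higher without and lower with stimulation and 252 (1.60%) the reverse. The additive fit called the average of 5 of the 362 and the contrast averaged over 4 group means that of 124, so whether an average was called depends on the fit. DNA replication genes belonged to the second pattern: 14 of 24 tested were lower without and higher with stimulation, 22 were called higher in stimulated cells, and the difference was positive and called in 21. Mcm6, a subunit of the replicative helicase, measured 374, 376 and 369 against 258, 257 and 267 CPM, then 109, 108 and 101 against 153, 159 and 156 CPM in stimulated cells. The libraries were apart in each culture in opposite order (-0.52 and 0.55), and the average of -0.01 ± 0.18 shows neither. Rrm2, the small subunit of ribonucleotide reductase, was the 1 shared member (0.57 ± 0.04).

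Ung, a uracil DNA glycosylase, read 22.1, 21.5 and 21.2 against 11.7, 10.5 and 12.5 CPM and 17.9, 21.4 and 19.8 against 28.8, 28.6 and 29.9 CPM. Arsb, a lysosomal sulfatase, read 70.0, 66.9 and 73.0 against 47.7, 48.4 and 49.7 CPM and 7.005, 7.85 and 7.08 against 20.01, 17.8 and 16.2 CPM. Both were lower without and higher with stimulation, by -0.90 and 0.56 for Ung and by -0.53 and 1.30 for Arsb. Gzmb (granzyme B) measured 2792, 2839.6 and 2816 against 1793, 1832 and 1826 CPM without and 3573, 3565 and 3589 against 4396, 4328 and 4463 CPM with stimulation. The order of the vectors turned round, with effects of -0.63 ± 0.02 and 0.30 ± 0.02, and the average of -0.17 ± 0.15 was not called by the additive fit (adjusted p = 0.451) but was by the contrast of 4 means (-0.17 ± 0.01, adjusted p = 1.58e-15). Among the 14 named genes with opposite signs that contrast also called Arsb (0.39), Swap70 (-0.32), Cdc42ep3 (-0.26) and Ung (-0.17). Cd8a, the coreceptor chain, also had opposite signs, on a smaller scale (-0.20 and 0.17), while its partner Cd8b1 was shared and higher (0.21 ± 0.03).

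The other pattern included Swap70, a regulator of actin and of RAC. It read 17.1, 13.9 and 17.7 against 22.6, 19.0 and 23.3 CPM without and 45.4, 47.6 and 49.9 against 22.02, 22.5 and 24.0 CPM with stimulation. The stimulated control libraries stood above all others, and the effects were 0.41 ± 0.08 and -1.06 ± 0.07. Klf3, a repressor related to KLF2, read 35.7, 35.2 and 33.3 against 48.6, 57.3 and 54.8 CPM and 10.7, 8.84 and 9.29 against 6.40, 4.38 and 3.61 CPM (0.63 and -1.0005). Plpp5 (0.85 and -0.51), Cdc42ep3 (0.37 and -0.90), Rassf3 (0.48 and -0.41) and Mfge8 (0.39 and -0.50) behaved alike. Ccnd1 (cyclin D1) shows how the additive term weighs the cultures. It read 0.731, 1.13 and 0.928 against 0.255, 0.449 and 0.192 CPM without stimulation and 22.2, 28.2 and 25.9 against 51.1, 52.2 and 52.1 CPM with it, and its averaged effect of 0.90 ± 0.19 was called, nearly all its counts being from stimulated cells. The mean of the 2 contrasts was -0.29 and not called (adjusted p = 0.279).

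**Figure D5:**
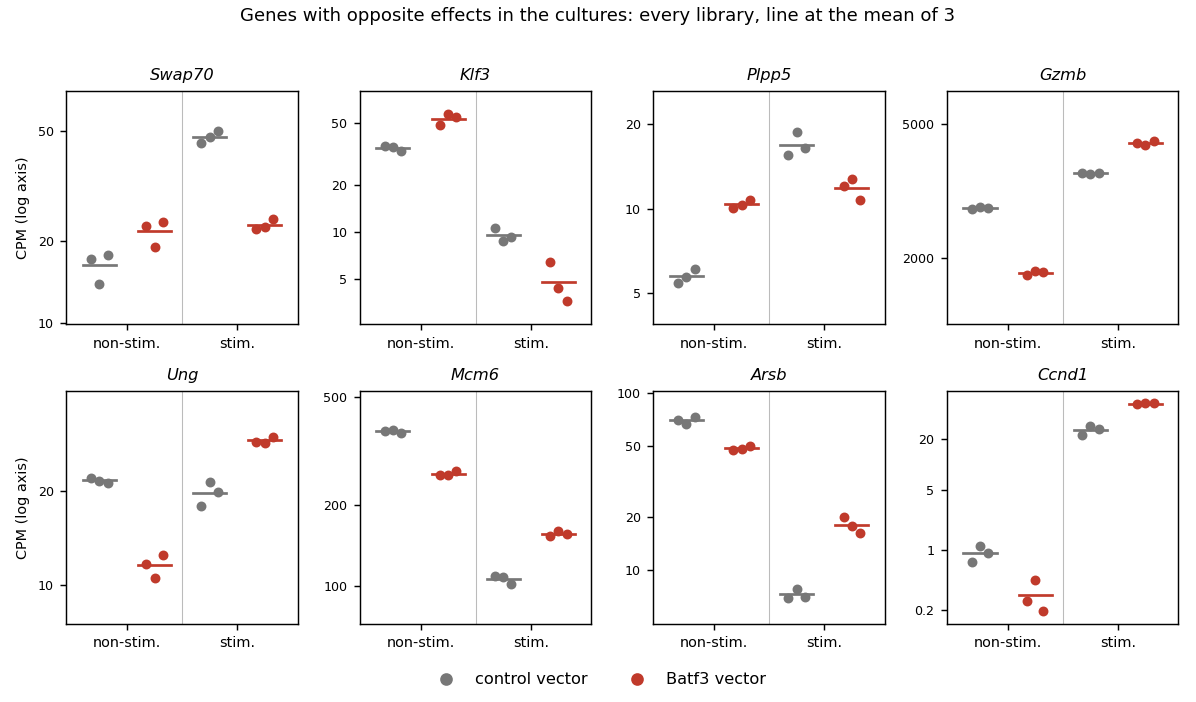
CPM on a log axis of 8 genes with opposite effects in the cultures, every library shown, control vector in grey and Batf3 vector in red, with a bar at the mean of 3 libraries. Swap70, Klf3 and Plpp5 were higher with Batf3 without stimulation and lower with it, and Gzmb, Ung, Mcm6, Arsb and Ccnd1 the reverse.

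Large effects of 1 direction fell outside the shared rule for different reasons. Ctla4, an inhibitory receptor, rose in both cultures but unequally (0.88 ± 0.04 and 4.91 ± 0.08). It read 93.4, 89.2 and 87.3 against 161, 170.0 and 168 CPM without and 8.30, 8.38 and 8.38 against 256, 254 and 245 CPM with stimulation, so stimulated libraries were the lower with the control vector and the higher with Batf3. Foxp3, the factor of regulatory T cells, had effects of 4.23 and 2.34 and read 0.465, 0.398 and 0.994 against 12.2, 11.8 and 11.4 CPM without and 1.37, 1.37 and 0.609 against 5.80, 4.30 and 6.93 CPM with stimulation, the controls standing on few counts. Bcl2, which blocks apoptosis, rose mainly with stimulation (0.10 and 0.80). Bcl2l11 (BIM), its antagonist, had values of -0.07, which was not called, and -0.49, which was. By contrast Tlr7, a sensor of single-stranded RNA, had effects of -3.05 and -3.04 and missed the rule by its interval alone (-0.76 to 0.77). It measured 22.8, 21.1 and 23.0 against 2.42, 3.20 and 2.44 CPM, and 4.19, 4.19 and 3.43 against 0.521, 0.371 and 0.516 CPM at the low level of stimulated cells. Just inside the 1.5-fold limit (0.58 on the log2 scale) lay E2f8 (interval 0.09 to 0.58), Cenpf (0.12 to 0.58) and Carhsp1 (-0.58 to -0.22), and just outside it Lpin1 (-0.01 to 0.59), Ckap2l (0.14 to 0.59) and Tfr2 (-0.59 to 0.40).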

How the data were processed

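RNA-seq libraries were made from polyadenylated RNA with a stranded kit, per the labels' protocols. The authors deposited whole-number read counts per gene, made with STAR 2.7 and featureCounts on GRCm38 per the submitters' processing notes. Annotation, strand setting and treatment of multi-mapped reads were not given in the sources used here. All 12 columns of the table each matched 1 sample, and coordinates were taken from GENCODE M21 for 55154 of 55335 identifiers.

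The tests used edgeR 4.0.16 under R 4.3.3 (filterByExpr on the 4 groups, TMM, robust quasi-likelihood). The averaged effect is the vector term of an additive model of culture and vector (9 residual degrees of freedom). A gene with unequal levels weighs there mostly by the culture with more counts, and a difference between the cultures adds to the spread. Effects per culture and their difference (the interaction) come from a model of 4 group means (8 residual degrees of freedom). Tests were two-sided with Benjamini-Hochberg adjustment over all 15702 genes, and a call is an adjusted p under 0.05. Log2 effects are Batf3 minus control, ± SE, and CPM use no pseudocount. Standard errors and intervals never fall below counting error. Replicates of a group differed by more than sampling noise. The code was tested on simulated data.

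Named were the 14 largest shared rises and falls with groups apart in both cultures and 10 CPM or more, up to 2 shared members a direction of each of 34 gene lists, 6 genes of each opposite pattern, 3 genes each side of the interval limit and 14 genes always named; genes known only as models or clones, and segments of receptors or antibodies, were omitted, and other list members were named after their values were seen. A few genes that this rule or the lists include are not reported here. The question, the members and the lists were chosen with earlier results of these data known. Alternatives were library sizes alone, RLE factors, DESeq2 1.42.0, other filters, a contrast averaged over 4 means, a replicate block, non-robust dispersion, single cultures, each library left out, and other limits of the shared rule.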

Additional observations from a re-analysis of the deposited data

Results flagged for a closer look

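Of the 112 named genes 52 had a Batf3 effect that differed between the cultures by the interaction test (edgeR's quasi-likelihood test, adjusted p under 0.05). Values are the log2 effect in stimulated minus that in non-stimulated cells.

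In genes with opposite signs the difference was positive for Ccnd1 (2.64), Arsb (1.82), Ung (1.46), Cers6 (1.29), Orc1 (1.23), Mcm6 (1.07), Gzmb (0.93) and Cd8a (0.36), and negative for Klf3 (-1.63), Swap70 (-1.47), Plpp5 (-1.36), Cdc42ep3 (-1.27), Rassf3 (-0.89) and Mfge8 (-0.89). Among genes that were neither opposite nor shared it was Ctla4 (4.03), Eomes (0.93), Bcl2 (0.70), Ckap2l (0.37), Foxp3 (-1.90), Batf3 (-1.58), Tcf7 (-0.57), Batf (-0.43), Bcl2l11 (-0.42) and Ifng (-0.27).

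The difference was also called in 28 of the 85 named genes that met the shared rule, whose effects were alike within the limits set but not equal. It was positive for Lrrc32 (0.41), Ccl4 (0.36), Cenpf (0.35), Mki67 (0.35), Tns1 (0.35), Itgb7 (0.35), E2f8 (0.34), Il18r1 (0.33), Tnfsf8 (0.32), Rrm2 (0.29), Gata3 (0.27), Ifit2 (0.26), Prf1 (0.26), Asns (0.24), Lif (0.19) and Pdia6 (0.15), and negative for Carhsp1 (-0.40), Lgals9 (-0.35), Rxra (-0.34), Slfn5 (-0.33), St3gal1 (-0.32), Klf2 (-0.32), Treml2 (-0.30), Tnfaip3 (-0.20), Ccl5 (-0.19), Irf8 (-0.15), Cd44 (-0.15) and Tap1 (-0.12). For a gene that fell, a positive value means a smaller fall with stimulation.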

How the results depend on the processing

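Scaling moved the counts most: with library sizes alone 1901 genes were lower on average, and 895 shared genes were higher and 451 lower. With no filter on low counts 533 genes rose by 2-fold or more. The narrower interval limit tried left 315 shared rises, and a ratio of at least 0.67 left 537 shared falls. All other counts stayed within 1.5 times of those reported, also with RLE factors, DESeq2 and each library left out (2365 to 2761 genes higher, 2727 to 3118 lower, 500 to 557 shared rises and 734 to 854 shared falls). No pairing of samples by replicate number was seen (correlation of same-numbered libraries from -0.26 to 0.15, 2 of 12 closest to their own number). With 3 technical replicates a group, a weak pairing could be missed. A replicate block gave 2372 genes higher and 2786 lower. Single genes changed sign where a fit of 1 culture shows an effect that the average hides: in non-stimulated libraries alone Arsb was -0.49, Ccnd1 -1.58, Cdc42ep3 0.40, Cers6 -0.71, Mfge8 0.42, Orc1 -0.53 and Swap70 0.44, and in stimulated libraries alone Cd8a was 0.17, Gzmb 0.30, Klf3 -0.998, Mcm6 0.56, Plpp5 -0.51, Rassf3 -0.41 and Ung 0.56. Ccnd1 was -0.29 in the contrast averaged over 4 means and -0.044 with DESeq2, and the cause of the latter was not tested. Of the shared genes named, Itgal and Uqcrc1 were no longer called on average with library sizes alone, and Uqcrc1 also without 4 of the single libraries. These are averaged calls, and more genes left the shared rule itself. With library sizes alone the memory, inhibitory receptor and chromatin lists each held 0 shared falls. Cd44, Havcr2, Dnmt3a and Dnmt3b were thus among the genes no longer shared. In non-stimulated libraries fitted alone Havcr2 (adjusted p = 0.105), Dnmt3a (0.0506) and Uqcrc1 (0.0938) were not called, although the fit of all 4 groups called them in that culture. Depth limits the rule for low genes: 3 counts stood for 0.191 to 0.229 CPM in a library, and reads amplified by PCR are not independent molecules, so intervals cover counting error at least. Technical replicates leave the spread between mice not measured.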

Other observations

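Helper-lineage genes held rises that the averaged fit called and the shared rule did not reach. Of 18 tested, 13 rose on average and 2 fell, with 3 shared rises and 1 shared fall (16.7% of all tested genes were higher and 19.3% lower, 3.57% and 5.25% shared). Markers of CD4 T cells rose beside them, 4 of 5 tested with a median of 1.32, and their part in these rises was not tested. That list holds 7 genes, and Cd4 itself, at 0.668 CPM or less in every library, was not among the 5 tested. Maf, a factor of follicular and regulatory helper cells, rose by 1.49 (1.35 and 1.74), Runx1 by 1.43 (1.69 and 1.29) and Rora by 1.05 (0.79 and 1.21). Cd40lg, the CD40 ligand, rose by 1.73 (1.45 and 1.74) and Icos by 1.32 (0.79 and 2.04). Slamf6, a receptor of stem-like cells, rose by 1.48 (1.85 and 1.19), and S1pr1, which guides exit from lymphoid tissue, by 0.79 (0.83 and 0.50). These genes were named after their values were seen.

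Chromatin regulators gave a few shared effects in both directions. Kmt2a, a histone methyltransferase gene, rose by 0.43 ± 0.03 and Tet3, which oxidises methylcytosine, by 0.46 ± 0.03. The DNA methyltransferase genes Dnmt3a (-0.14 ± 0.03) and Dnmt3b (-0.27 ± 0.05) fell. Of 21 tested genes of that list 7 rose and 3 fell, the falls no more frequent than among all genes (19.3% lower, 16.7% higher). With library sizes alone 9 rose and 2 fell, with 3 shared rises and 0 shared falls.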
